A study of Homo sapiens with 6 samples.

Results

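The heat shock proteins and J-domain chaperones of crizotinib-resistant H3122 cells were compared with those of the control cells. Members were chosen by gene name: all genes of the deposited table named HSPA or HSPB with a number, HSP90AA1, HSP90AB1, HSP90B1, HSPD1, HSPE1, HSPH1, or DNAJA, DNAJB or DNAJC with a number. The rule found 74 of 51537 genes. They comprised 3 HSP90 genes, 13 HSP70 genes, 3 HSP110 genes, the mitochondrial chaperonin pair, 8 HSPB genes and 45 J-domain genes. The HSPB genes are classed here, by name, as small heat shock protein genes. The J-domain genes were 4 DNAJA, 13 DNAJB and 28 DNAJC. H3122 is a human lung adenocarcinoma line known to carry a fusion of EML4 with the receptor kinase gene ALK, and crizotinib inhibits ALK and MET. The control group was 3 libraries labelled as H3122 control cells, with no treatment named. The resistant group was 3 libraries of cells selected, per the labels' protocols, by stepwise crizotinib from 0.1 to 10 µM. Whether crizotinib was still present at harvest, and whether the resistant cells were a clone or a mixed population, is not said. The labels also do not say that replicates were separate cultures, so the spread behind every p-value is that of the libraries and could be purely technical.

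Heat shock proteins are chaperones that bind unfolded or partly folded proteins. HSP70 proteins cycle between ATP-bound and ADP-bound states: a J-domain protein delivers the substrate and triggers ATP hydrolysis, and a nucleotide exchange factor, such as an HSP110 protein, resets the cycle. HSP90 proteins act later, on near-native clients that include many kinases, and ALK fusion proteins are known HSP90 clients. Small heat shock proteins hold unfolded proteins without ATP. Heat shock factor 1, HSF1, drives the stress-inducible members through heat shock elements, which are inverted repeats of the unit GAA in the promoter, and the unfolded protein response drives the members of the endoplasmic reticulum (ER).

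Values are TPM, a read abundance corrected for gene length and scaled to a total of 1000000 per library. The estimated depth was 29856927 to 36695580 reads per library, and 15485 to 16272 genes reached 1 TPM. Pearson correlations of log2 values ran from 0.986 to 0.989 among libraries of the same group and from 0.957 to 0.960 across groups. The 5 epithelial markers EPCAM, KRT8, KRT18, KRT19 and CDH1 stood between 177 and 6842 TPM. The 11 markers of leukocytes, endothelium and fibroblasts reached at most 7.64 TPM, 7 of them stayed under 1 TPM in all libraries, and the fibroblast genes DCN and LUM were at 0. Their sum was 14.4 to 14.8 TPM in the controls and 11.5 to 12.6 TPM in the resistant cells, and its members went both ways: mean CDH5 was 7.24 and 3.45 TPM, mean PECAM1 0.912 and 2.80 TPM. In bulk RNA, fewer cells of a type and less RNA per cell cannot be told apart.

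Chaperone transcripts made up 1.02% to 1.11% of all TPM in control and 1.02% to 1.07% in resistant libraries. The total hardly moved, with 10707 ± 473 TPM in the controls and 10452 ± 251 TPM in the resistant cells (SD, n = 3), and the ranges overlapped. Its make-up differed by class. HSP70 transcripts summed to 2272 ± 82.2 TPM in the controls and 2753 ± 186 TPM in the resistant cells, with no overlap between groups. Small heat shock protein transcripts went the other way, from 2328 ± 18.4 to 1650 ± 126 TPM, and DNAJC transcripts from 678 ± 41.5 to 567 ± 11.3 TPM. HSPB1 alone held 97.6% of the small heat shock protein sum in control and 96.4% in resistant libraries, so that sum mostly follows this gene. HSP90 transcripts stood at 3970 ± 246 and 3948 ± 73.1 TPM. The 4 most abundant members together held 62.2% to 63.4% of the chaperone TPM in control and 57.0% to 57.6% in resistant libraries.

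Each gene was tested with limma on log2(TPM + 1), fitted to the 16077 genes that reached 1 TPM in 3 or more libraries. Differences are resistant minus control on that scale, given with the standard error, and genes with a Benjamini-Hochberg adjusted p below 0.05 over all tested genes were called. Of the 74 members 60 were tested. Among them 17 were called higher, 19 lower and 24 were not called. So 36 of 60 were called, beside 48.6% of all tested genes, where 24.0% were higher and 24.7% lower. Abundant genes were called more often: where the mean TPM was 100 or more the share was 64.0%, and among the members it was 10 of 16. The median difference was 0.05 over the tested members and -0.00 over all tested genes. Only 1 member was called with at least a 2-fold rise on this scale, HSPB8, and 2 with at least a 2-fold fall, DNAJC1 and DNAJC22. Over all tested genes 3.71% were called with such a rise and 2.28% with such a fall. Values of the groups did not overlap for 39 of 60 tested members, 21 higher and 18 lower in the resistant cells. Over all tested genes 57.9% did not overlap, 29.2% higher and 28.7% lower.

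Control replicate 1 was the lowest control library for 48 of 60 tested members (80.0%), and for 65.6% of all tested genes. Without it 15 members were called higher and 18 lower.

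**Figure D1:**
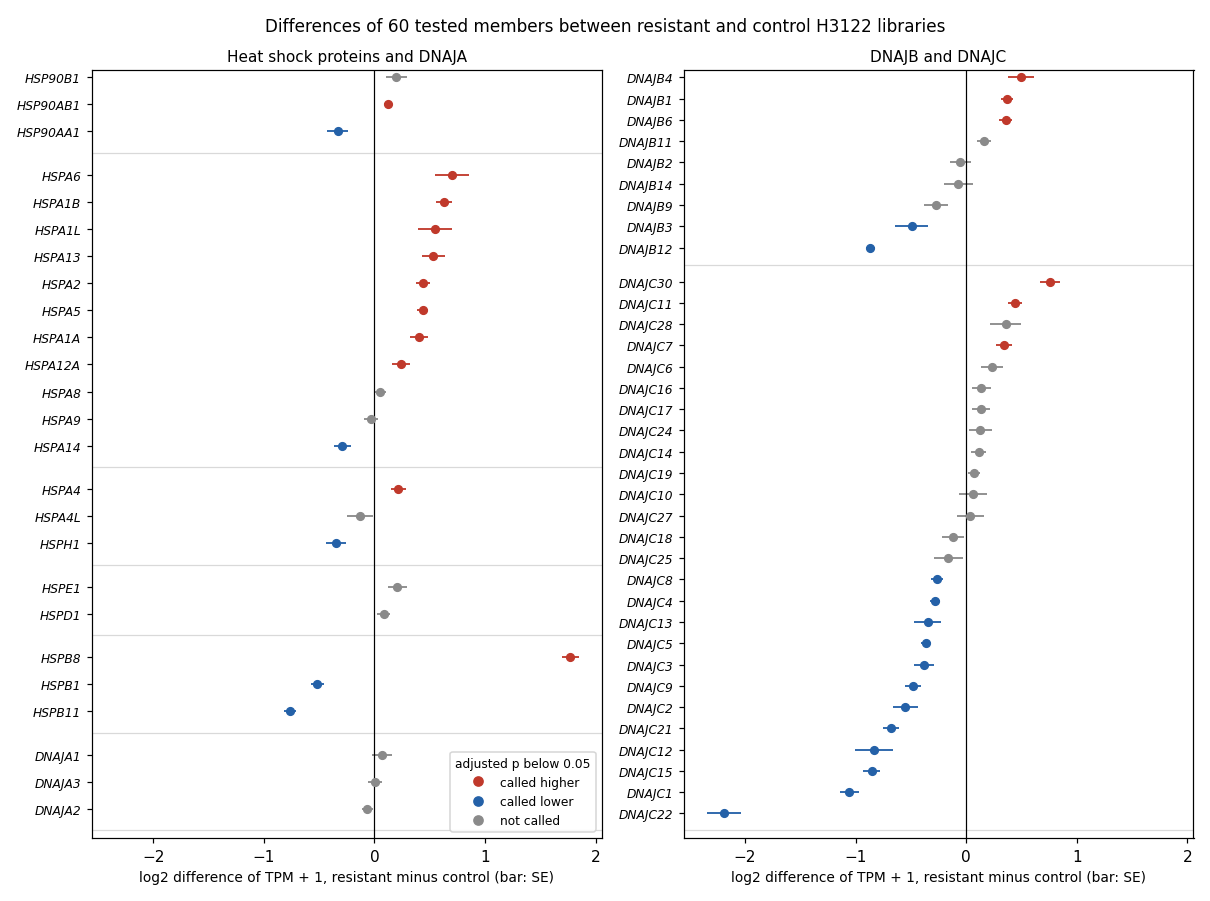
Difference of log2(TPM + 1), resistant minus control, for the 60 tested members, grouped by class with lines between classes; points are fitted differences, bars are 1 standard error, and colour gives the call at adjusted p below 0.05. HSPB8 lies farthest to the right at 1.77 and DNAJC22 farthest to the left at -2.19; 8 of 11 tested HSP70 genes are called higher and 12 of 26 tested DNAJC genes lower.

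The cytosolic HSP90 genes moved in opposite directions. HSP90AA1 encodes the stress-inducible cytosolic HSP90 and HSP90AB1 the constitutive one. HSP90AA1 (ENSG00000080824, GRCh38 chromosome 14, 102080738 to 102139699, minus strand) measured 1186, 1490.0 and 1357 TPM in the control libraries and 1147, 958 and 1091 TPM in the resistant libraries. All resistant values lay below all control values, though control replicate 1 was close to the highest resistant library. It fell by 0.33 on the log2 scale (SE 0.10, adjusted p = 0.0251). HSP90AB1 (ENSG00000096384, chromosome 6, 44246166 to 44253888, plus strand) measured 2215, 2312 and 2337 TPM in the control libraries and 2449.6, 2559.6 and 2479 TPM in the resistant libraries. It rose slightly, by 0.13 ± 0.04 (adjusted p = 0.0261), again without overlap, and was the most abundant member, at rank 36 among all genes in both groups. HSP90AA1 held 36.9 ± 2.17% of the summed TPM of the pair in control and 29.9 ± 2.40% in resistant libraries. Both calls were near the threshold. That of HSP90AA1 was lost without control replicate 2 (0.0595), control replicate 3 (0.0694), resistant replicate 2 (0.0641) or resistant replicate 3 (0.0532), and that of HSP90AB1 without control replicate 1 (0.0698), control replicate 2 (0.0520), control replicate 3 (0.0508), resistant replicate 2 (0.0847) or resistant replicate 3 (0.0736), with adjusted p in parentheses.

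HSP90B1, the ER member of the family known as GRP94, measured 295, 369.9 and 349 TPM in the control libraries and 425, 358 and 379 TPM in the resistant libraries. The groups overlapped, and its difference of 0.20 ± 0.10 was not called (adjusted p = 0.131, 95% interval -0.03 to 0.42).

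Heat shock elements were looked for in the 250 bases before each RefSeq gene start (GRCh38.p14), because inducible members share them as a class and yet moved differently here. A promoter was given for 64 of the 74 members, with 83 starts in all, against 35116 starts of all genes. The 3-unit element GAANNTTCNNGAA, or TTCNNGAANNTTC on the other strand, stood before a start of 6 members, in 7.23% of member windows and 0.441% of all windows. The 6 were HSP90AA1, HSP90AB1, HSPA6, HSPA8, HSPD1 and DNAJB6. Of these 3, HSPA6 among them, were called higher, 1 lower and 2 were not called. A 2-unit element, GAANNTTC or TTCNNGAA, each its own reverse complement and each contained in the 3-unit form, stood before 20 members, in 24.1% of member windows and 11.6% of all windows. Of the 16 tested among those, 9 were called higher, again with HSPA6, 3 lower and 4 were not called, beside 24.0% and 24.7% of all tested genes. HSPA1A and HSPA1L are both among the 9 through the same stretch of DNA, read on opposite strands. A match is only a match of letters, and says nothing about binding. The stretches shown here set members that rose beside members that fell or were not called. They run 5′ to 3′ on the gene's strand, and capitals mark the bases of the element that are not N.
HSP90AA1: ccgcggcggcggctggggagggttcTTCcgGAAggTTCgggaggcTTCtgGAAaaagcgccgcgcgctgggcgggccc
HSP90AB1: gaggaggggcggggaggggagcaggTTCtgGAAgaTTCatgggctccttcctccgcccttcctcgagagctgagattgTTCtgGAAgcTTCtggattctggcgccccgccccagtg
HSPA1A: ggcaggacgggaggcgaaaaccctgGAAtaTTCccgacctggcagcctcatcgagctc
HSPA1B: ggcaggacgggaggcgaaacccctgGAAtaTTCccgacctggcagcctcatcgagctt
HSPA6: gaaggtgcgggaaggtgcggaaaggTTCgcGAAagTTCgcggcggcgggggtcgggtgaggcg
HSPA8: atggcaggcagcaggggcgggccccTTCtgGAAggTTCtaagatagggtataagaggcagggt
HSPB1: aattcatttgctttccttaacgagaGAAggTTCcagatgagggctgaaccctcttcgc
HSPB8: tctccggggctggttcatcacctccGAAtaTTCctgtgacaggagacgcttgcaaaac
DNAJB1: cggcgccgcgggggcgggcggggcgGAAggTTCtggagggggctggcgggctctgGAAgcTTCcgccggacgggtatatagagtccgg
DNAJB6: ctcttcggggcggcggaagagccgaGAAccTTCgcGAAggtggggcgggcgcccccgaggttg

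The positions are chr14:102087080-102087157 (minus strand) for HSP90AA1, chr6:44247753-44247868 for HSP90AB1, chr6:31815412-31815469 for HSPA1A, chr6:31827608-31827665 for HSPA1B and chr1:161524441-161524503 for HSPA6. They are chr11:123062154-123062216 (minus strand) for HSPA8, chr7:76302466-76302523 for HSPB1, chr12:119178818-119178875 for HSPB8, chr19:14518412-14518499 (minus strand) for DNAJB1 and chr7:157336848-157336910 for DNAJB6. The HSPA1A and HSPA1B stretches are identical at 56 of 58 bases, and both hold GAATATTC, as does that of HSPB8. HSP90AA1, which fell, and HSP90AB1, which rose, each hold at least 1 complete 3-unit element.

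Of 13 HSP70 genes 11 were tested, and 8 were called higher, 1 lower and 2 were not called, beside 24.0% of all tested genes called higher and 24.7% lower. The 8 include HSPA6, which passed the filter through its resistant libraries alone, and without resistant replicate 2 the count was 5 higher of 10 tested. HSPA1A and HSPA1B encode the stress-inducible cytosolic HSP70 and lie next to each other on chromosome 6. HSPA1A (ENSG00000204389, chromosome 6, 31815464 to 31817946, plus strand) measured 527, 567 and 572 TPM in the control libraries and 645, 803 and 762 TPM in the resistant libraries. HSPA1B (ENSG00000204388, chromosome 6, 31827735 to 31830255, plus strand) measured 280.3, 248 and 276 TPM in the control libraries and 379, 443 and 421 TPM in the resistant libraries. For both genes every resistant library was above every control library. The differences were 0.40 ± 0.08 (adjusted p = 0.00523) for HSPA1A and 0.63 ± 0.07 (adjusted p = 3.24e-04) for HSPA1B. Their coding sequences are nearly identical and 36.5% of the exon length of HSPA1B overlaps the transcript AL671762.1 on the same strand, so the split of reads between the pair is uncertain. HSPA1A held 67.5 ± 2.15% of their summed TPM in control and 63.9 ± 0.834% in resistant libraries.

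HSPA8, the constitutive cytosolic HSP70 known as HSC70, was the most abundant HSP70 gene. It measured 764, 825 and 817 TPM in the control libraries and 772, 876 and 841 TPM in the resistant libraries. The groups overlapped, with 2 of 3 resistant libraries above every control library, and the difference of 0.05 ± 0.06 was not called (adjusted p = 0.508, 95% interval -0.08 to 0.18). Its share of the summed TPM of HSPA8, HSPA1A and HSPA1B went from 49.3 ± 0.885% in control to 41.9 ± 0.921% in resistant libraries, with no overlap. HSPA9, the mitochondrial HSP70 known as mortalin, likewise was not called: it measured 247, 284 and 276 TPM in the control libraries and 266, 271 and 252 TPM in the resistant libraries, a difference of -0.03 ± 0.06 (adjusted p = 0.698, 95% interval -0.17 to 0.11).

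HSPA5 encodes BiP, the HSP70 of the ER lumen and a classic target of the unfolded protein response. HSPA5 (ENSG00000044574, chromosome 9, 125234853 to 125241330, minus strand) measured 276, 296 and 294 TPM in the control libraries and 372, 403 and 396 TPM in the resistant libraries. The highest control library was below the lowest resistant library, and the gene rose by 0.44 ± 0.05 (adjusted p = 2.78e-04). The ER stress element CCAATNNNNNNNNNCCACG, or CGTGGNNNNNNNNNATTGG on the other strand, stood in 0.0740% of all windows, and among members only before HSPA5 and HSP90B1. These stretches are shown because the ER pair carries this element yet only HSPA5 was called.
HSPA5: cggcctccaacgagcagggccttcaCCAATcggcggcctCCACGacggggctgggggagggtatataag
HSP90B1 distal: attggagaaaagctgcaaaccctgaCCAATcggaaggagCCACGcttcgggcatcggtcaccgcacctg
HSP90B1 proximal: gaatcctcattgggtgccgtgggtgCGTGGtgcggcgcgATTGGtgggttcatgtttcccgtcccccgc

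They lie at chr9:125241366-125241434 (minus strand), chr12:103930191-103930259 and chr12:103930296-103930364. HSPA13, a microsome-associated HSP70 relative on chromosome 21, measured 13.2, 16.2 and 14.4 TPM in the control libraries and 24.5, 19.7 and 20.6 TPM in the resistant libraries. It rose by 0.53 ± 0.10 (adjusted p = 0.00398) without overlap.

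The remaining HSP70 genes are named here after their values were seen. HSPA2, known for its role in male germ cells, measured 52.4, 58.9 and 58.5 TPM in the control libraries and 74.1, 82.2 and 74.8 TPM in the resistant libraries, and rose by 0.44 ± 0.06 (adjusted p = 0.00111). HSPA6 is known as a strictly heat-inducible gene with almost no basal transcript. It measured 0.582, 0.714 and 0.468 TPM in the control libraries and 1.45, 1.71 and 1.56 TPM in the resistant libraries, with an estimated 11.6 reads in its lowest library. Only its resistant libraries passed the filter, so a difference was built into its selection. It was called higher by 0.70 ± 0.15 (adjusted p = 0.00738). Its near copy HSPA7 did not pass the filter. HSPA1L measured 2.89, 2.16 and 2.69 TPM in the control libraries and 3.53, 5.37 and 3.89 TPM in the resistant libraries and was called higher (0.55 ± 0.16, adjusted p = 0.0227), but not without control replicate 2 (0.0636), control replicate 3 (0.05004) or resistant replicate 2 (0.0662). HSPA12A was called higher by 0.24 ± 0.08 (adjusted p = 0.0447) and lost that call whichever library was left out: control replicate 1 (0.118), control replicate 2 (0.0661), control replicate 3 (0.0845), resistant replicate 1 (0.101), resistant replicate 2 (0.0972) or resistant replicate 3 (0.0936). HSPA14, which pairs with DNAJC2 on the ribosome, was the only HSP70 gene called lower (-0.29 ± 0.07, adjusted p = 0.0135), but not without control replicate 3 (0.0577). A second locus annotated under the same symbol overlaps 17.4% of its exon length.

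The HSP110 genes, whose products recharge HSP70 with ATP, split. HSPH1, the stress-inducible HSP110 on chromosome 13, measured 115, 148 and 139.8 TPM in the control libraries and 108, 99.8 and 106 TPM in the resistant libraries. It fell by 0.35 on the log2 scale (SE 0.09, adjusted p = 0.0173) without overlap, but was not called without control replicate 3 (0.0580) or resistant replicate 2 (0.0533). HSPA4, the most abundant of the class, measured 122, 146 and 137 TPM in the control libraries and 161, 155 and 154 TPM in the resistant libraries. It was called higher (0.22 ± 0.07, adjusted p = 0.0307), but not without control replicate 3 (0.0602), resistant replicate 1 (0.0737), resistant replicate 2 (0.0587) or resistant replicate 3 (0.0630). HSPA4L, named after its values were seen, was not called (-0.13 ± 0.12, adjusted p = 0.383).

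Neither gene of the mitochondrial chaperonin was called by limma, and 1, HSPE1, had an unadjusted p below 0.05. HSPD1, which encodes HSP60, measured 404, 460.4 and 453 TPM in the control libraries and 476, 464 and 452 TPM in the resistant libraries, a difference of 0.08 ± 0.06 (adjusted p = 0.264, 95% interval -0.05 to 0.21). HSPE1, its HSP10 lid, measured 71.5, 89.9 and 85.4 TPM in the control libraries and 95.7, 97.2 and 91.3 TPM in the resistant libraries. Its resistant values were all above its control values, and its difference of 0.21 ± 0.08 missed the threshold (adjusted p = 0.0739). Exons of HSPD1 on the opposite strand overlap 14.2% of HSPE1. HSPE1 was called when control replicate 2 was left out (adjusted p = 0.0271), with a filter at 5 TPM (0.0477), with median-ratio scaling (0.0180), after rescaling without the most abundant genes (0.0188), and by limma-voom on rebuilt reads (0.00601). The same limma-voom fit called HSPD1 (0.0206) and HSP90B1 (0.0418) higher.

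**Figure D2:**
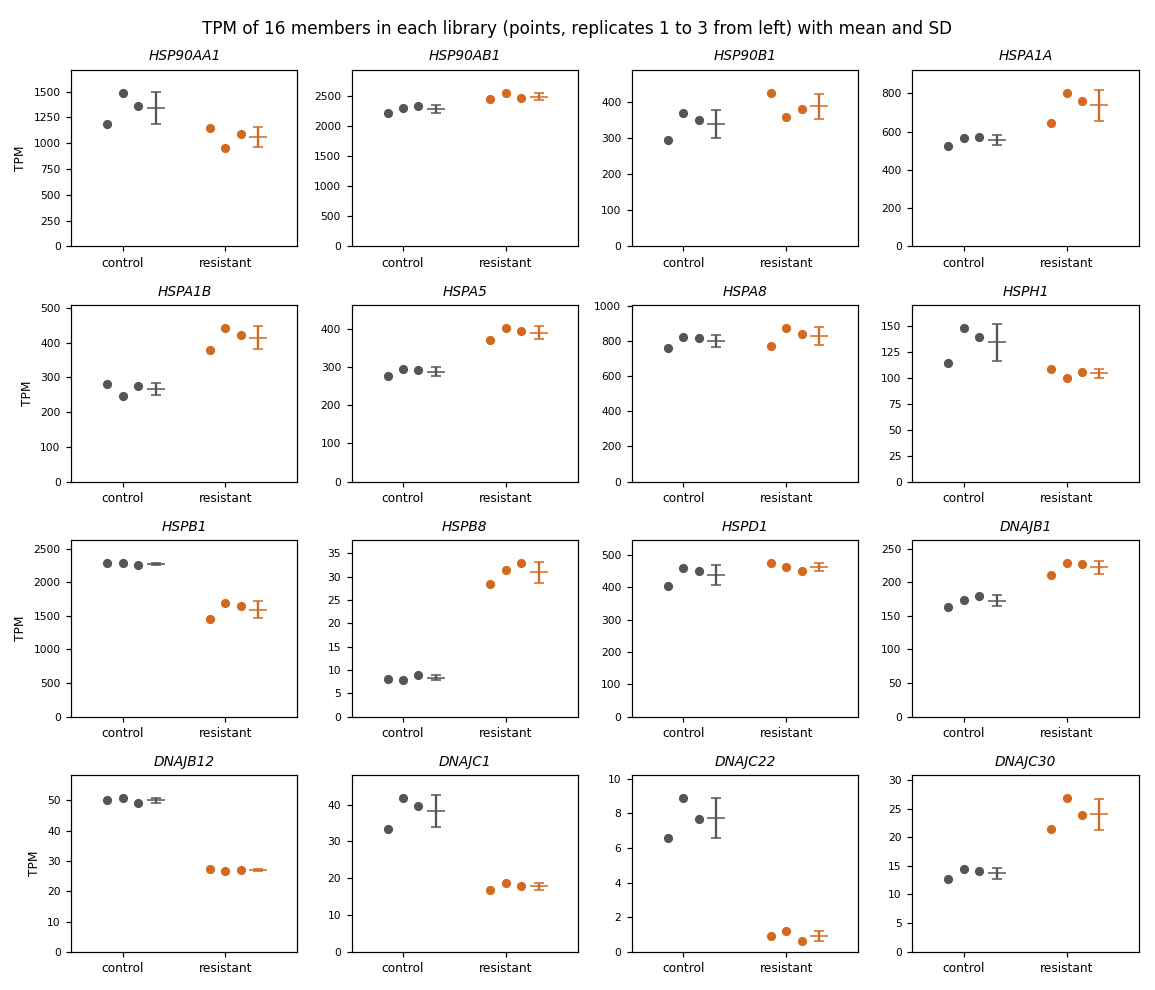
TPM of 16 members in each library, controls in grey and resistant cells in orange; points are replicates 1 to 3 from the left, and the dash with its bar is the mean and SD (n = 3), with each vertical axis starting at 0. HSPB8, DNAJB12, DNAJC1 and DNAJC22 show the widest gaps between the groups, while HSP90B1, HSPA8 and HSPD1 overlap.

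All 3 tested genes of the small heat shock protein class, which is set by name, were called, 1 higher and 2 lower. Over all tested genes 48.6% were called. HSPB8, also known as HSP22, works with the cochaperone BAG3 in clearing misfolded proteins by autophagy. HSPB8 (ENSG00000152137, chromosome 12, 119178642 to 119221131, plus strand) measured 8.16, 7.93 and 8.997 TPM in the control libraries and 28.5, 31.4 and 32.9 TPM in the resistant libraries. No resistant library was below 28.5 TPM and every control library was under 10 TPM. The gene rose by 1.77 ± 0.08 (adjusted p = 5.28e-06), a 3.70-fold ratio of mean TPM. HSPB1, also known as HSP27, was the second most abundant member. HSPB1 (ENSG00000106211, chromosome 7, 76302544 to 76304295, plus strand) measured 2285, 2281 and 2249 TPM in the control libraries and 1449, 1683 and 1643 TPM in the resistant libraries. It fell by 0.52 on the log2 scale (SE 0.06, adjusted p = 3.03e-04), and its rank among all genes moved from 38 to 57. HSPB8 went from 0.367 ± 0.0277% to 1.91 ± 0.0700% of the summed TPM of the pair, so HSPB1 remained far more abundant. HSPB11 carries a heat shock name but encodes IFT25, a subunit of the intraflagellar transport complex of cilia. HSPB11 (ENSG00000081870, chromosome 1, 53916574 to 53945929, minus strand) measured 43.9, 48.8 and 47.1 TPM in the control libraries and 27.9, 26.4 and 26.9 TPM in the resistant libraries, and fell by 0.76 on the log2 scale (SE 0.05, adjusted p = 3.92e-05) without overlap.

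The DNAJA genes encode general J-domain partners of cytosolic and mitochondrial HSP70. None of the 3 tested was called by limma, at an unadjusted p below 0.05 or by limma-voom. DNAJA1, the most abundant, stood at 149.7 ± 19.7 TPM in the controls and 156 ± 6.303 TPM in the resistant libraries, a difference of 0.07 ± 0.09 (adjusted p = 0.574, 95% interval -0.15 to 0.29).

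Among 9 tested DNAJB genes, 3 were called higher, 2 lower and 4 were not called. Over all tested genes 24.0% were called higher and 24.7% lower. DNAJB1, the stress-inducible HSP40 of the cytosol, measured 164, 174 and 179.5 TPM in the control libraries and 211, 229 and 227 TPM in the resistant libraries. It rose by 0.37 ± 0.05 (adjusted p = 9.12e-04) without overlap, and its share of DNAJB transcripts went from 47.2 ± 0.640% to 54.5 ± 0.797%. DNAJB12, a J-domain protein anchored in the ER membrane that serves the degradation of membrane proteins, measured 50.1, 50.8 and 49.2 TPM in the control libraries and 27.2, 26.8 and 26.9 TPM in the resistant libraries. It fell by 0.87 on the log2 scale (SE 0.04, adjusted p = 7.23e-06), with a spread within each group under 2 TPM. DNAJB6, which is known to suppress aggregation of polyglutamine proteins, and DNAJB4 are named after their values were seen. DNAJB6 measured 39.8, 43.9 and 44.4 TPM in the control libraries and 52.5, 56.4 and 55.8 TPM in the resistant libraries and rose by 0.35 ± 0.06 (adjusted p = 0.00169). DNAJB4 stood at 10.2 ± 1.27 TPM in the controls and 14.7 ± 1.905 TPM in the resistant libraries and rose by 0.50 ± 0.12 (adjusted p = 0.00986). DNAJB3, annotated as a pseudogene type and also named after its values were seen, was called lower (-0.49 ± 0.15, adjusted p = 0.0283), but not without control replicate 1 (0.0691), control replicate 2 (0.0609), control replicate 3 (0.0586), resistant replicate 2 (0.0760) or resistant replicate 3 (0.0759). The 4 that were not called, DNAJB2, DNAJB9, DNAJB11 and DNAJB14, had differences of -0.27 (DNAJB9) to 0.16 (DNAJB11). DNAJB11, an ER partner of BiP, was called higher with median-ratio scaling (adjusted p = 0.0410), after rescaling without the most abundant genes (0.0200), by limma-voom (0.00754) and without resistant replicate 1 (0.0478), and DNAJB9 was called lower without that library (0.0421).

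The DNAJC genes carry the J domain in otherwise unrelated proteins, and many serve one organelle or substrate. Of 26 tested, 12 were called lower, 3 higher and 11 were not called, beside 24.7% and 24.0% of all tested genes called lower and higher. The 12 include DNAJC12, which passed the filter through its control libraries alone. DNAJC22 had the largest difference in size of any tested member. DNAJC22 (ENSG00000178401, chromosome 12, 49346917 to 49357546, plus strand) measured 6.58, 8.89 and 7.68 TPM in the control libraries and 0.89005, 1.195 and 0.6397 TPM in the resistant libraries. It fell by 2.19 on the log2 scale (SE 0.15, adjusted p = 3.62e-05), an 8.49-fold lower mean TPM, and its lowest library held an estimated 31.7 reads. DNAJC1, an ER membrane J-domain protein known to bind ribosomes, was next among the DNAJC genes. DNAJC1 (ENSG00000136770, chromosome 10, 21756537 to 22003769, minus strand) measured 33.4, 41.8 and 39.7 TPM in the control libraries and 16.8, 18.8 and 17.9 TPM in the resistant libraries, and fell by 1.06 on the log2 scale (SE 0.09, adjusted p = 7.53e-05). Neither gene had overlapping groups.

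DNAJC15, a J-domain protein of the mitochondrial inner membrane, measured 27.03, 29.7 and 28.7 TPM in the control libraries and 14.3, 16.8 and 14.8 TPM in the resistant libraries, and fell by 0.86 on the log2 scale (SE 0.07, adjusted p = 8.65e-05). DNAJC21 and DNAJC2 serve ribosomes: DNAJC21 in maturation of the large subunit, and DNAJC2 at the tunnel exit, where nascent chains emerge. DNAJC21 measured 27.005, 32.3 and 30.1 TPM in the control libraries and 19.1, 17.7 and 17.9 TPM in the resistant libraries, a fall of 0.68 (SE 0.07, adjusted p = 2.62e-04). DNAJC2 measured 10.3, 12.7 and 11.9 TPM in the control libraries and 8.68, 6.55 and 7.72 TPM in the resistant libraries, and fell by 0.55 (SE 0.11, adjusted p = 0.00582). In each of these genes every control library was above every resistant library. DNAJC5, the cysteine string protein of secretory vesicles and the most abundant DNAJC gene, measured 168, 178 and 180.1 TPM in the control libraries and 131, 141 and 136 TPM in the resistant libraries. It fell by 0.37 (SE 0.05, adjusted p = 5.66e-04), again without overlap.

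DNAJC30, a mitochondrial J-domain protein linked to upkeep of respiratory complex I, went the other way. It measured 12.6, 14.5 and 14.1 TPM in the control libraries and 21.4, 26.8 and 23.8 TPM in the resistant libraries, with the lowest resistant library above the highest control library, and rose by 0.76 ± 0.09 (adjusted p = 4.28e-04). The other DNAJC calls are named after their values were seen. DNAJC11, a mitochondrial protein of the cristae junctions, was higher (0.44 ± 0.06, adjusted p = 9.27e-04), and so was DNAJC7 (0.34 ± 0.07, adjusted p = 0.00600). DNAJC9, a histone chaperone (-0.48 ± 0.07), DNAJC3, an ER cochaperone that curbs PERK (-0.38 ± 0.09), DNAJC4 (-0.28 ± 0.04), and DNAJC8, a splicing factor partner (-0.27 ± 0.05), were called lower, with adjusted p between 0.00130 for DNAJC4 and 0.00967 for DNAJC3. DNAJC12 was also lower (-0.83 ± 0.17, adjusted p = 0.00512) at under 5 TPM in every library. DNAJC13 was called lower (-0.35 ± 0.12, adjusted p = 0.0483), but not without control replicate 2 (0.129), control replicate 3 (0.123), resistant replicate 2 (0.126) or resistant replicate 3 (0.118). The 11 that were not called were DNAJC6, DNAJC10, DNAJC14, DNAJC16, DNAJC17, DNAJC18, DNAJC19, DNAJC24, DNAJC25, DNAJC27 and DNAJC28, with differences of -0.16 (DNAJC25) to 0.36 (DNAJC28). Single libraries bore on 3 of them: DNAJC25 was called lower without control replicate 1 (adjusted p = 0.0199), DNAJC28 higher without control replicate 2 (0.0444) and DNAJC6 higher without resistant replicate 2 (0.0272). Limma-voom called DNAJC28 (0.0331), DNAJC6 (0.0189) and DNAJC16 (0.0495) higher. DNAJC28 was also called with median-ratio scaling (0.0455), after rescaling without the most abundant genes (0.0497) and without trend and robust estimation (0.0372). Exons of THAP3 on the opposite strand cover 27.9% of the exon length of DNAJC11, those of FAM149B1 24.0% of DNAJC9 and those of BUD23 14.4% of DNAJC30. Whether the authors counted by strand is not known.

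By compartment, with lists drawn up after the values were seen, the ER and mitochondrial members are read beside the 48.6% of all tested genes called, 24.0% higher and 24.7% lower. Of 12 ER members 2 were called higher (HSPA5, HSPA13), 3 lower (DNAJB12, DNAJC1, DNAJC3) and 7 were not called. Of 9 mitochondrial members 2 were called higher (DNAJC30, DNAJC11), 1 lower (DNAJC15) and 6 were not called. The shares called were 41.7% and 33.3%, below that of all tested genes.

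Several members that fell lay among neighbours that were also lower. For each member the median difference was taken over the tested protein-coding genes within 5 Mb on either side, members left out. Over the 60 tested members the difference of a member and that of its neighbours had a Pearson r of 0.45 and a Spearman rho of 0.52, as a description across genes that share chromosomes and libraries. The neighbour median was at or below -0.3 for 13 members, and 9 of the 19 members called lower were among them. The rest of the 13 were DNAJB4, called higher, and HSPA4L, DNAJB9 and DNAJC6, not called. The share of all tested genes with such neighbours is not given here, so the count has no background. The 9 were HSPB11 (neighbours -0.91 over 49 genes), DNAJC3 (-0.60), HSPH1 (-0.57), DNAJC2 (-0.51), DNAJC15 (-0.50), DNAJC9 (-0.50), DNAJB12 (-0.48), DNAJC12 (-0.45) and DNAJC21 (-0.37). HSPH1, DNAJC3 and DNAJC15 are all on chromosome 13, where the median of the tested protein-coding genes, members left out, was -0.52. The neighbour median was at or above 0.3 for 3 members, HSPA13, HSPA2 (0.33) and DNAJC7 (0.36), all called higher. HSPA13 is on chromosome 21, with a median of 0.29 taken in the same way, and its 6 neighbours stood at 0.74.

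Other called members had neighbours nearer to 0 or on the other side of it. DNAJC22 had neighbours at -0.14, DNAJC1 at 0.04 and HSPB8 at -0.09. HSPB1 had neighbours that were lower as well, at -0.16, on chromosome 7. There the median of the tested protein-coding genes, members left out, was -0.33. The neighbours of HSP90AA1, which fell, were also lower, at -0.25 over 57 genes. DNAJC30 (-0.13), HSPA5 (-0.15) and DNAJB4 (-0.54) were called higher among neighbours with a median below -0.1. The HSPA1A, HSPA1B and HSPA1L neighbours stood at 0.10. DNA copy number was not measured, and its part in these differences was not tested.

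**Figure D3:**
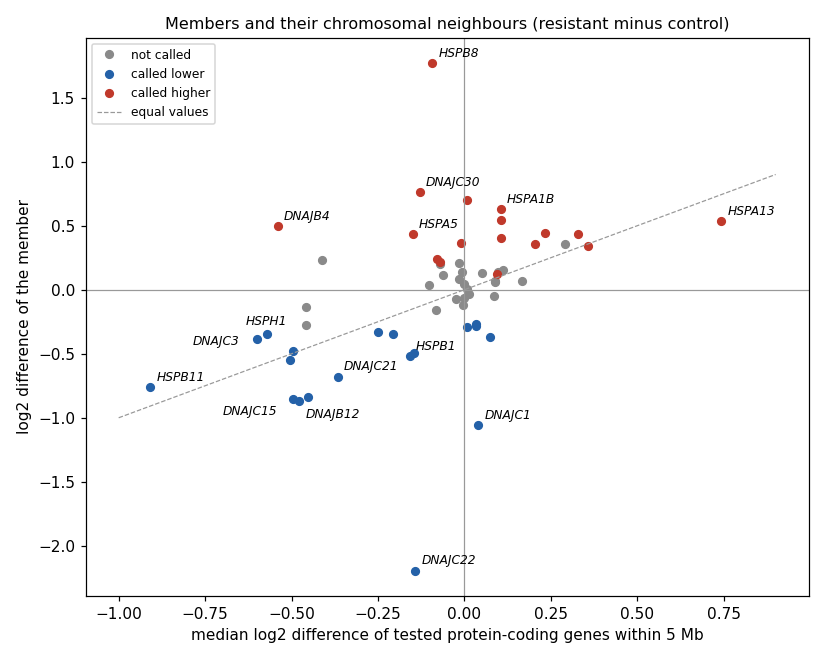
Each point is 1 of 60 tested members, with the median log2 difference of the tested protein-coding genes within 5 Mb on the horizontal axis and its own log2 difference on the vertical axis, both resistant minus control; the dashed line marks equal values. HSPB11 (-0.76, neighbours -0.91) and HSPA13 (0.53, neighbours 0.74) lie nearer to the line than DNAJC15 (-0.86, neighbours -0.50) and DNAJB12 (-0.87, neighbours -0.48), which fell more than their neighbours. HSPB8, DNAJC1 and DNAJC22 lie far from the line.

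The partners of these chaperones were counted from 7 lists, to be read beside the 24.0% of all tested genes called higher, the 24.7% called lower and the median of -0.00. Of 4 tested genes in the heat shock factor list, 2 were called lower, and the list median was -0.22. The other 2, HSF2 (-0.17 ± 0.16) and HSBP1 (0.08 ± 0.06), were not called. HSBP1 encodes a binding protein of these factors and not a factor. HSF2 and HSBP1 are named after their values were seen. HSF1, the main activator of heat shock genes, stood at 84.5 ± 1.99 TPM in the controls and 69.6 ± 0.989 TPM in the resistant libraries, and fell by 0.28 on the log2 scale (SE 0.04, adjusted p = 9.70e-04). HSF4 fell by 0.35 (SE 0.10, adjusted p = 0.0245), but was not called without control replicate 2 (0.0640), control replicate 3 (0.0552), resistant replicate 2 (0.0650) or resistant replicate 3 (0.0732).

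Among 13 HSP70 exchange factors and cofactors, 3 were called higher, 3 lower and 7 were not called, with a median of 0.10. BAG5 stood at 90.9 ± 3.97 TPM in the controls and 51.2 ± 1.42 TPM in the resistant libraries and fell by 0.82 (SE 0.05, adjusted p = 1.76e-05), and BAG1 at 22.5 ± 0.771 TPM in the controls and 15.5 ± 1.22 TPM in the resistant libraries, a fall of 0.51 (SE 0.07, adjusted p = 7.87e-04). GRPEL1, the exchange factor of mitochondrial HSP70, rose by 0.38 ± 0.06 (adjusted p = 0.00148), and HYOU1, an ER relative of HSP110, by 0.31 ± 0.07 (adjusted p = 0.00848). BAG3, the partner of HSPB8 named after its values were seen, rose by 0.18 ± 0.05 (adjusted p = 0.0218).

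Of 15 tested HSP90 cochaperones 6 were called higher, 4 lower and 5 were not called, with a median of -0.00. STIP1, which hands clients from HSP70 to HSP90, stood at 318 ± 10.2 TPM in the controls and 406 ± 23.1 TPM in the resistant libraries and rose by 0.35 ± 0.05 (adjusted p = 0.00114). CHORDC1 rose by 0.53 ± 0.09 (adjusted p = 0.00181) and NUDC by 0.35 ± 0.06 (adjusted p = 0.00279), while SUGT1, on chromosome 13, fell by 0.37 (SE 0.06, adjusted p = 0.00133). CDC37, the adaptor that brings kinases to HSP90, was named after its values were seen and rose by 0.34 ± 0.05 (adjusted p = 0.00159).

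The TRiC chaperonin and prefoldin, which fold actin and tubulin, had 6 of 14 genes called higher and 1 lower, with a median of 0.06. Those with the largest rises were CCT8 on chromosome 21 (0.51 ± 0.08, adjusted p = 0.00141), PFDN4 (0.45 ± 0.08, adjusted p = 0.00246), CCT6A (0.44 ± 0.05, adjusted p = 4.79e-04) and PFDN2 (0.40 ± 0.07, adjusted p = 0.00328). The other 7 genes were not called. Differences over the list ran from -0.35 for VBP1 to 0.51 for CCT8, and whether they differ between subunits was not tested.

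In the list of ER folding and unfolded protein response genes, 8 of 22 were called higher, 3 lower and 11 were not called, with a median of 0.01. DDIT3, which encodes the stress factor CHOP, stood at 8.49 ± 0.949 TPM in the controls and 17.96 ± 1.305 TPM in the resistant libraries and rose by 1.001 ± 0.09 (adjusted p = 1.16e-04). MANF rose by 0.86 ± 0.06 (adjusted p = 4.40e-05), CRELD2 by 0.71 ± 0.07 (adjusted p = 1.97e-04) and SDF2L1 by 0.60 ± 0.06 (adjusted p = 1.82e-04), all 3 ER-resident proteins known to be induced by ER stress. XBP1 (-0.23 ± 0.05), ATF4 (-0.30 ± 0.04) and HERPUD1 (-0.39 ± 0.06), which are named after their values were seen, were the 3 genes called lower. HSPA5 rose with the first group, and HSP90B1, PDIA6 (0.01 ± 0.05) and CANX (0.01 ± 0.05), the last pair also named after their values were seen, were not called.

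Mitochondrial import and protein quality control genes had 9 of 17 called higher and 1 lower, with a median of 0.19. TRAP1, the mitochondrial HSP90 that the naming rule leaves out, rose by 0.45 ± 0.05 (adjusted p = 1.83e-04). HTRA2, a protease of the intermembrane space, rose by 0.52 ± 0.08 (adjusted p = 0.00121), PAM16, a J-like subunit of the import motor, by 0.43 ± 0.10 (adjusted p = 0.00905), and CLPB, a disaggregase, by 0.34 ± 0.05 (adjusted p = 0.00120). Of 4 tested J-domain or crystallin-related genes outside the naming rule, with a median of -0.09, 1 was called lower, GAK (-0.28 ± 0.06, adjusted p = 0.00471), and 1 higher. The latter, CRYAB, a small heat shock protein named after its values were seen, measured 0.0725, 0.0778 and 0.0942 TPM in the control libraries and 1.26, 1.23 and 1.22 TPM in the resistant libraries. It was called (1.05 ± 0.17, adjusted p = 0.00171) but passed the filter through its resistant libraries alone.

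**Figure D4:**
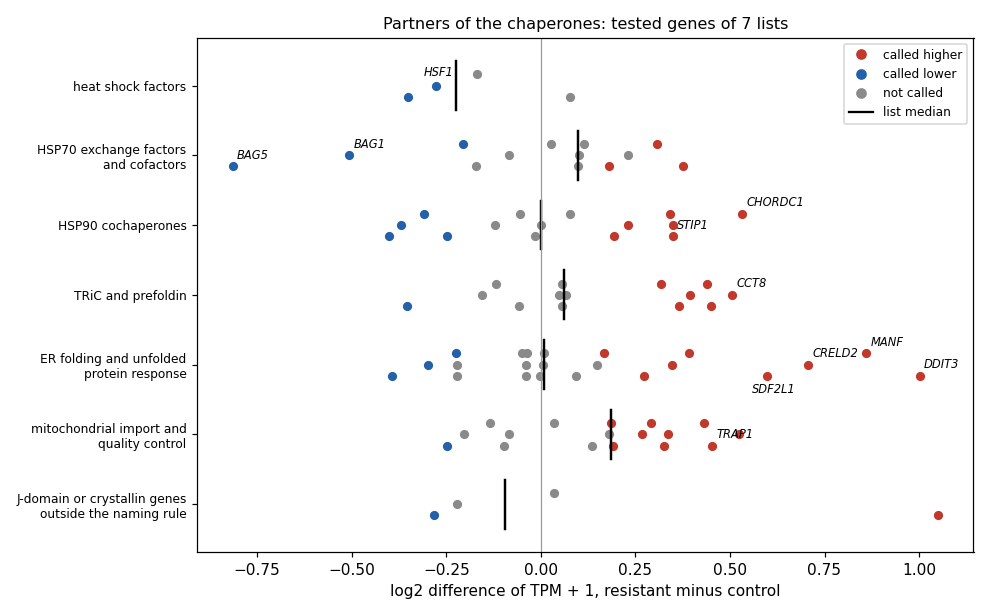
Difference of log2(TPM + 1), resistant minus control, for each tested gene of the 7 partner lists; each point is a gene, offset vertically only for legibility, colour gives the call at adjusted p below 0.05, and the black bar is the list median. Medians run from -0.22 for heat shock factors to 0.19 for mitochondrial import and quality control, and every list but the heat shock factors holds calls in both directions.

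The 14 members below the filter reached at most 1.17 TPM in any library. HSPB3 and DNAJC5B were at 0 in all libraries, and the others were HSPA12B, HSPA7, HSPB2, HSPB6, HSPB7, HSPB9, DNAJA4, DNAJB5, DNAJB7, DNAJB8, DNAJB13 and DNAJC5G. DNAJB5 measured 0.373, 0.481 and 0.388 TPM in the control libraries and 1.17, 1.103 and 0.946 TPM in the resistant libraries, with every resistant library above every control library. It was the only one of them called when no filter was applied.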

How the data were processed

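Poly(A) RNA of 3 control and 3 crizotinib-resistant H3122 libraries was made with a stranded kit, per the labels' protocols. The authors deposited 1 table of TPM for 51537 genes. HISAT2 is the only tool named, per the submitters' processing notes. Version, counting tool, strand setting, build and annotation are not stated in the sources used here. Each of the 51537 identifiers was found in GENCODE 29 (GRCh38), which gave coordinates and union exon lengths. In each library, TPM times length was divided by the most common of its smallest products, taken as 1 read. This gave whole reads, within 0.01, for 67.2% to 67.9% of values above 0. The depth was estimated as the sum over all genes, whether or not their reads came out whole.

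The 16077 genes that reached 1 TPM in 3 or more libraries were fitted on log2(TPM + 1) with limma 3.58.1 in R 4.3.3. The fit used trend and robust estimation (statmod 1.5.0), with group as the only term, two-sided and Benjamini-Hochberg adjusted. It was also run on simulated data that held far fewer changed genes than were called here. That run cannot vouch for the calls and is not used for them. The scale understates changes of low genes. Chi-square per gene within groups was 4.05 to 11.9, so all 6 were kept as separate libraries. Promoters were those of RefSeq (GRCh38.p14). Alternatives were a pseudocount of 0.1, no filter, a filter at 5 TPM, median-ratio scaling, rescaling without mitochondrially encoded genes and the 1% most abundant genes, limma without trend and robust estimation, limma-voom on rebuilt reads, the replicate block and leaving out each library.

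Named genes were fixed key members, HSF1 and the most abundant of each class. Every called member with at least 5 TPM in the higher group and a difference of at least 0.5 was also named. Per partner list these were up to 4 called genes with at least 5 TPM, largest difference first, and the most abundant gene where too few were called. Members below the filter were named by rule. Many other members and list genes are said to be named after their values were seen. That also holds for the rest, among them members picked out because a call or sign changed under an alternative. Members and lists were chosen with earlier results of these data known.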

Additional observations from a re-analysis of the deposited data

How the results depend on the processing

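Of the 36 called members, 27 kept their call under all 14 alternatives that gave them a value, and no called member changed direction. Members called higher and lower were 17 and 19, and 13 to 16 and 13 to 20 when a library was left out. They were 24 and 19 with limma-voom and 20 and 19 with median-ratio scaling or rescaling, so more calls were then higher than lower: the higher share of called members was 47.2% in the reported fit, 55.8% with limma-voom and 51.3% with either scaling. Whether the numbers shared by control and resistant libraries pair them is not known. Deviations of same-numbered libraries correlated at -0.0583, -0.0017 and -0.0163. With 3 libraries per group, whose deviations sum to 0, these values cannot settle it. The replicate block gave 15 higher and 16 lower members, lost 6 calls and also called DNAJB11 higher (0.1569, adjusted p = 0.0454). Counts of small groups moved most. With the block, HSP90, HSP70 and heat shock factor genes called lower were 0, 0 and 1, HSP110 genes called higher 0, and TRiC and mitochondrial list genes called lower 2 each. Without a filter, HSP90 genes called lower and HSP110 genes called higher were 0, and DNAJB and heat shock factor genes called lower 1 each. Without trend and robust estimation, HSP90 genes called higher and lower and HSP110 genes called higher were 0. HSPE1 made 1 chaperonin call with the 5 TPM filter, median-ratio scaling and rescaling. TRiC and mitochondrial genes called lower were 2 and 2 with the 5 TPM filter, 2 and 3 with median-ratio scaling, and 3 and 3 with rescaling. J-domain or crystallin genes outside the naming rule called lower were 2 with that filter, which left 0 higher, and 2 with median-ratio scaling.

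Leaving out 1 library gave 0 to 1 HSP90 genes called higher and 0 to 1 lower. HSP70 genes were then 5 to 7 higher and 0 to 1 lower. HSP110 genes were 0 to 1 each way, chaperonin genes 0 to 1 higher and DNAJB genes 1 to 3 lower. In the lists 1 to 3 heat shock factor, 1 to 3 TRiC, 3 to 5 ER and 1 to 3 mitochondrial genes were lower. Of the J-domain or crystallin-related genes outside the naming rule, 0 to 1 were higher and 1 to 2 lower. Reversed signs were confined to genes that were not called. HSPA9, at -0.03, was at 0.0059 with limma-voom. Without 1 library the differences ran from -0.0905 to 0.0086 for HSPA9, -0.0397 to 0.1475 for DNAJA1, -0.0274 to 0.0663 for DNAJA3, -0.1192 to 0.0376 for DNAJB2, -0.1861 to 0.0477 for DNAJB14, -0.0619 to 0.1800 for DNAJC10, -0.0178 to 0.1013 for DNAJC27 and -0.0056 to 0.1042 for HSCB. The cause of these moves was not tested. Depth limits HSPA6, DNAJC12 and DNAJC22 most, with an estimated 11.6, 8.48 and 31.7 reads in their lowest library.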
